A study of Mus musculus with 11 samples.

Results

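Amino acid transporter genes were examined in primary neurospheres, which are floating spheres grown from neural stem and progenitor cells, here of embryonic mouse brain at E15.5. The members were the protein-coding genes whose symbols start with Slc1a, Slc3a, Slc7a, Slc36a, Slc38a or Slc43a, leaving out Slc1a2, Slc1a3 and Slc38a4, which gave 40 of the 53453 rows of the table. Of these, 21 reached 1 TPM (the usual RNA-seq level per transcript length and library total) in at least 5 of 11 libraries and could be tested, and 19 did not. The name rule also takes in Slc7a6os, the gene named for lying opposite Slc7a6, which is not a carrier of the Slc7 family, so 20 tested members were transporters of these families. Control libraries numbered 6, from embryos whose treatment is labelled as none, and 5 libraries came from embryos with Klf5 overexpression. The labels count the same numbers of embryos. Strain, and the means and cell type by which Klf5 was overexpressed, are not stated in the labels. Klf5 itself stood at 53.6 to 93.0 TPM in the overexpression libraries and 0.371 to 1.29 TPM in controls.

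Amino acid carriers of the plasma membrane differ in what drives them. Slc7 light chains exchange amino acids across the membrane and mostly need a heavy chain of the Slc3 family to reach the cell surface, whereas Slc1 and most Slc38 carriers depend on sodium. In neural progenitors and glia these carriers supply leucine for growth signalling, cystine for glutathione, and serine and glutamine for biosynthesis. Several of the genes are known targets of ATF4, the transcription factor made when cells lack amino acids or are otherwise stressed.

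Control neurospheres expressed a few carriers at high level. Slc7a5 (LAT1, the light chain that imports leucine and other large neutral amino acids) had 184 ± 56.7 TPM (SD, n = 6) and Slc3a2 (CD98, the heavy chain of LAT1) had 174 ± 69.5 TPM (SD, n = 6). These levels did not stand in a fixed order, since Slc7a5 was above Slc3a2 in 4 of 6 control libraries. Together they made up 31.1 to 48.2% of the summed TPM of the 40 members in control libraries.

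Slc38a2 (SNAT2, a sodium-coupled carrier of small neutral amino acids) followed at 112 ± 20.8 TPM (SD, n = 6), below Slc3a2 in 5 of 6 control libraries. Slc38a3 (SNAT3, a glutamine carrier) had 64.5 ± 10.7 TPM (SD, n = 6) and lay below Slc38a2 in all 6 controls. Slc1a4 (ASCT1, an exchanger of serine, alanine and other small neutral amino acids) had 57.5 ± 9.27 TPM (SD, n = 6), and its order with Slc38a3 was not fixed, with Slc38a3 higher in 4 of 6 controls.

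A middle range held the cationic amino acid carrier Slc7a1 (CAT1) at 41.5 TPM, the carriers Slc38a10 and Slc38a1 (SNAT1) at 39.3 and 35.3 TPM, and the light chain Slc7a6 at 20.3 TPM, all as control means. The exchange of place between Slc7a1, Slc38a10 and Slc38a1 was frequent, with Slc7a1 above Slc38a10 in 3 of 6 controls and Slc38a10 above Slc38a1 in 4 of 6. The other tested carriers, from Slc7a3 at 14.7 TPM to Slc38a9 at 1.65 TPM, were lower. Slc38a9, the arginine sensor of the lysosome that also acts in growth signalling, had the lowest control mean of the 21.

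**Figure D1:**
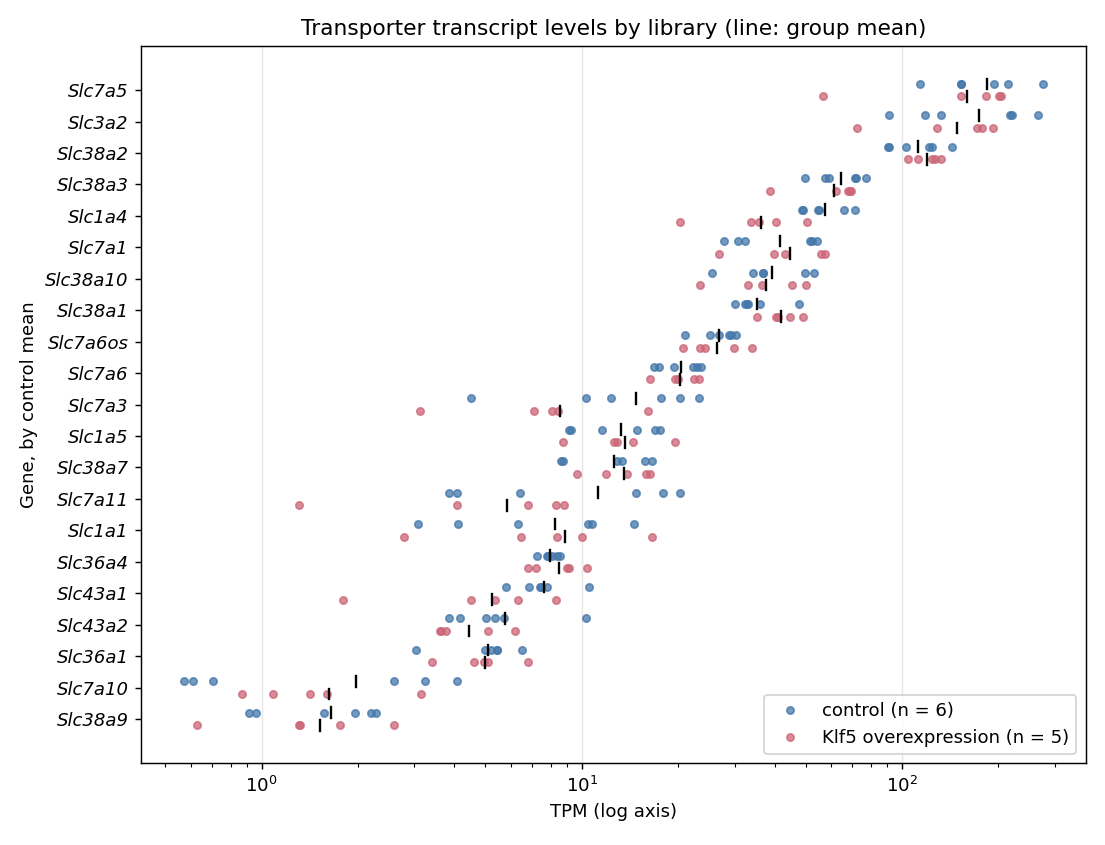
TPM of the 21 tested members on a log axis, ordered by control mean, with 1 point per library (blue, 6 control libraries; red, 5 Klf5 overexpression libraries) and a line at each group mean. Levels run from 184 TPM for Slc7a5 to 1.65 TPM for Slc38a9 in controls, and the points of the groups overlap for every member.

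Several carriers were near or at the bottom of the scale. Of the 19 members that could not be tested, 6 were listed at 0 in all 11 libraries: Slc1a7, Slc7a9, Slc7a12, Slc36a3, Slc38a8 and Slc38a11. A further 8 stayed under 1 TPM in every library, among them Slc3a1 (the heavy chain of the kidney and gut cystine carrier), Slc7a7 and Slc38a5, and 5 reached 1 TPM in fewer than 5 libraries. The highest of those 5 was Slc7a2 (CAT2, a cationic amino acid carrier), at 8.08 TPM in control library 1, 4.84 TPM in control library 6 and 3.70 TPM in overexpression library 1. It reached 1.49 TPM in overexpression library 5 and stayed at 0.855 TPM or less in the other 7 libraries. Slc7a4, Slc7a8, Slc38a6 and Slc1a6 had highest values of 2.67, 1.35, 1.95 and 1.72 TPM.

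Neural markers were high in the cultures and markers of other tissues low. Neural progenitor genes summed to 4629 to 7738 TPM in controls and 3633 to 5656 TPM with overexpression, with 8 of 8 genes above the filter. Endothelial genes, of interest because brain vessels are rich in Slc7a5, Slc3a2, Slc7a1 and Slc38a5, summed to 1.25 to 3.07 TPM in controls and 0.951 to 2.43 TPM with overexpression over 11 genes, of which 1 passed the filter. Microglia and macrophage genes summed to at most 3.14 TPM, with 6 of 11 at 0 in every library (Aif1, Cx3cr1, C1qa, C1qb, C1qc and Tyrobp). Mural, erythroid, and epithelial and choroid plexus genes summed to at most 14.0, 0.833 and 9.81 TPM, and oligodendrocyte lineage genes to 1645 to 2844 TPM in controls and 1693 to 2065 TPM with overexpression.

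The design asks which transcripts change with an excess of Klf5, a transcription factor of the Kruppel-like zinc finger family. By limma, with p adjusted over all 13549 tested genes and a threshold of 0.05, 0 of the 21 tested members rose and 0 fell, beside 3.72% of all tested genes called, 2.29% higher and 1.43% lower. At an unadjusted limma p under 0.05 there was 1 member, Slc1a4, against 12.6% of all tested genes. The groups overlapped for all 21 members, while 3.29% of all tested genes had groups that did not overlap. The log2 fold changes of log2(TPM + 1) ran from -0.75 (Slc7a11) to 0.25 (Slc38a1), with a median of -0.06 against -0.04 over all tested genes, and 14 of 21 lay below 0, against 57.6% of all.

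The 95% intervals show how far changes could still reach. For 17 of the 21 members the interval lay within a change of 1 on the log2(TPM + 1) scale either way. This is a 2-fold difference of TPM + 1, and for 11 the interval lay within 1.5-fold. For low genes such as Slc7a10 and Slc38a9, with control means of 1.96 and 1.65 TPM, it does not bound the change of TPM itself to 2-fold. The 4 whose intervals went past a change of 1 were Slc1a4, Slc7a3, Slc7a11 and Slc43a1, and all of these reached further down than up. For these 4 genes the spread between 5 and 6 libraries leaves room for a fall of more than 2-fold.

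**Figure D2:**
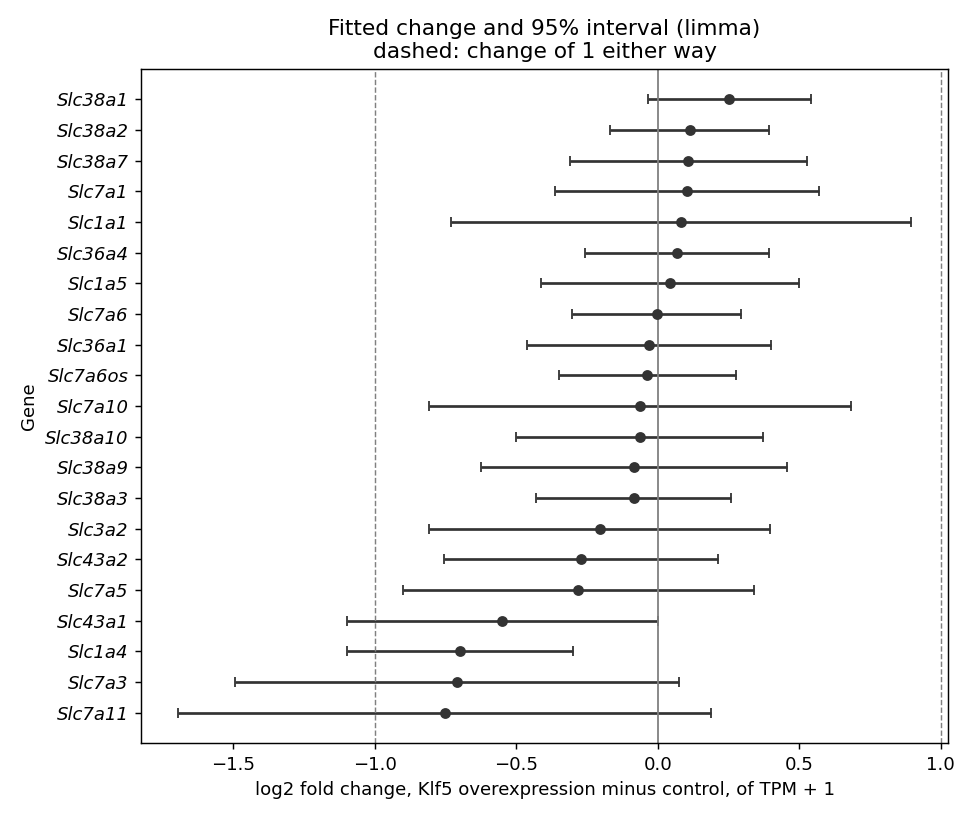
Log2 fold change of TPM + 1 (overexpression minus control) for the 21 tested members, with 95% intervals from limma and dashed lines at a change of 1 either way. The interval of Slc1a4, from -1.10 to -0.30, is the only one clear of 0, and the estimates run from -0.75 for Slc7a11 to 0.25 for Slc38a1.

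Slc1a4 (ENSMUSG00000020142, GRCm38 chromosome 11, 20302180 to 20332713, minus strand) was the member with the smallest p. Control libraries had 48.7 TPM at the lowest, 54.9 at the median and 71.4 at the highest. The overexpression libraries 1 to 5 had 50.6, 20.2, 35.7, 40.4 and 33.8 TPM. So 4 of 5 overexpression libraries lay below every control, and library 1 lay among the controls. Slc1a4 stood above Slc7a1, the next member by control mean, in all 6 controls and below it in all 5 overexpression libraries. That order was picked from several such pairs and is a description with no test. The group means of Slc1a4 were 36.2 ± 11.0 TPM (SD, n = 5) and 57.5 ± 9.27 TPM (SD, n = 6), a ratio of 0.629.

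For Slc1a4 the fitted difference was -0.70 ± 0.19 (SE) on the log2 scale in limma, whose adjusted p was 0.0517, just over the threshold. The gene is described here because its p was the smallest of the 21. Its limma adjusted p lay between 0.0147 and 0.182 over the other ways of fitting, and it passed in 6 of 9 of them. Of these 6, the fit with log2 Atf4 as covariate was chosen after seeing the data. It also passed in 1 of 11 fits that left out a library, the one without overexpression library 1 (0.0174). Among the 9 other ways, TPM rescaled to an equal sum over nuclear protein-coding rows gave 70.4 ± 15.0 (SD, n = 5) against 111 ± 13.7 (SD, n = 6) with no overlap. The highest overexpression library had 85.2 and the lowest control 94.1. How many of all tested genes lay apart on that scale was not computed. On that scale the limma adjusted p was 0.0147. The fits with rescaling, quantile normalization and trimmed-mean scaling, where Slc1a4 passed, called 720, 732 and 733 of all genes, against 504 in the main fit.

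Slc1a5 (ASCT2, the related exchanger known for glutamine) averaged 13.6 TPM with overexpression, with an SD of 3.94 over 5 libraries, and 13.2 TPM in controls, with an SD of 3.77 over 6. Its log2 fold change was 0.04, with a 95% interval from -0.41 to 0.50. The ratio of Slc1a4 to Slc1a5 within a library does not depend on the library's total. That ratio was 3.23 at the lowest, 4.55 on average and 5.95 at the highest in controls, and 2.58, 2.32, 2.78, 2.79 and 2.68 in overexpression libraries 1 to 5.

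The 2 groups of ratios did not overlap. Their log2 difference was -0.76. This was 1 of 6 ratios between related carriers, chosen after the values had been seen, so it is a description and no p-value is drawn from it. The groups overlapped for the other 5 ratios, among them Slc7a5 to Slc3a2, at 1.05 ± 0.179 (SD, n = 5) against 1.10 ± 0.162 (SD, n = 6).

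**Figure D3:**
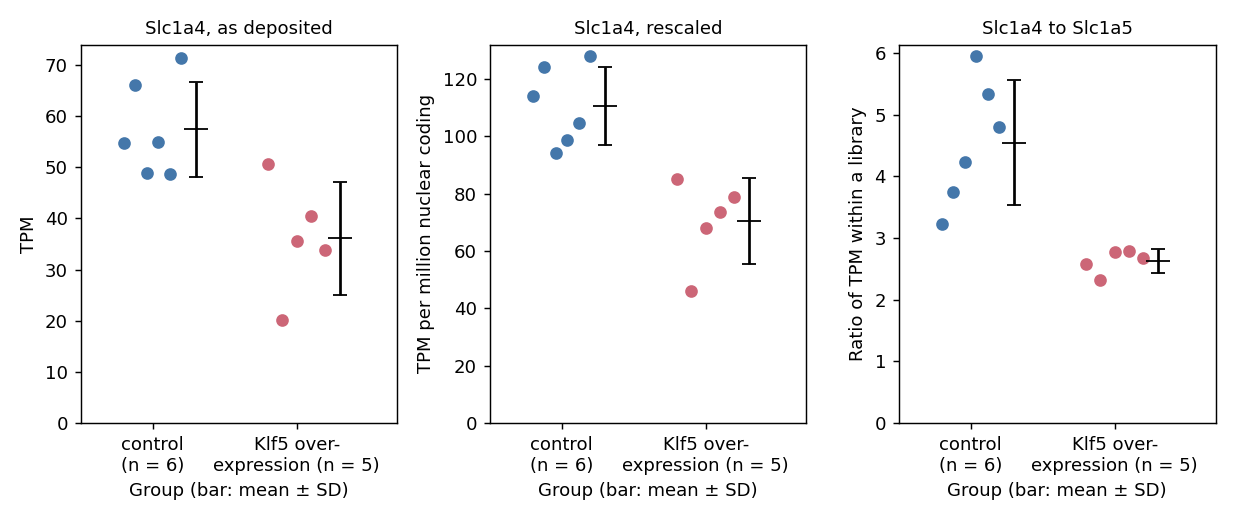
Slc1a4 in each library as TPM, as TPM rescaled to an equal sum over nuclear protein-coding rows, and as a ratio to Slc1a5, with mean ± SD bars (blue, 6 controls; red, 5 Klf5 overexpression libraries). The groups overlap on the deposited scale, with 1 overexpression library at 50.6 TPM, and lie apart in the other 2 panels, where the ratio is at most 2.79 with overexpression and at least 3.23 in controls. How many of all tested genes lie apart on the rescaled scale was not computed.

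Marker sums of all 4 neural lists had lower means with overexpression on the deposited scale, with overlapping ranges. The mean sums were 5694 TPM in controls and 4650 TPM with overexpression for neural progenitor genes, and 2216 and 1908 TPM for oligodendrocyte lineage genes. Astrocyte genes summed to 341 to 425 TPM in controls and 234 to 376 TPM with overexpression over 9 genes, and neuron genes to 354 to 512 TPM and 316 to 420 TPM over 10 genes. Their mean sums were 391 and 321 TPM for astrocyte genes and 457 and 359 TPM for neuron genes. The part of these cells in the Slc1a4 values was not tested. In bulk samples, fewer cells of a type and less RNA per cell cannot be told apart.

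The 250 bases before the RefSeq start of Slc1a4 are shown because the gene had the smallest p and its window holds a motif of the Kruppel-like family. Capitals mark matches to CCNCNCCC, a form of the GC-rich site that these factors bind, searched on both strands (GRCm38.p6, chr11:20332714-20332963, minus strand, read 5′ to 3′).
Slc1a4: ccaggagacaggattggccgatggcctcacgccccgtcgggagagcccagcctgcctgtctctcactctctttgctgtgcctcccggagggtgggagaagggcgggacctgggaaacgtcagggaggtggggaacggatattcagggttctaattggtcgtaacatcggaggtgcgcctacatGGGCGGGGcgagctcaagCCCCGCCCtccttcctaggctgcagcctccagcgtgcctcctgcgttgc
The matches began 67 and 49 bases before the start. Such a motif is common, with at least 1 match in 45.9% and at least 2 in 27.3% of the 32851 windows in the table. Of the 16 tested members with a window there, 11 had a match, and a match is a description of the sequence only.

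The heavy chain and its light chains varied more between libraries than between groups. Slc3a2 (ENSMUSG00000010095, chromosome 19, 8706882 to 8723369, minus strand) had 91.2 TPM at the lowest, 175 at the median and 265 at the highest in controls, and 171, 72.4, 128, 177 and 193 TPM in overexpression libraries 1 to 5. Slc7a5 (ENSMUSG00000040010, chromosome 8, 121881150 to 121907694, minus strand) had 114, 173 and 275 TPM as the lowest, median and highest control, and 200, 56.5, 153, 204 and 182 TPM with overexpression. In both genes overexpression library 2 was the lowest of all 11 and control library 6 the highest.

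For Slc3a2 and Slc7a5 limma gave log2 fold changes of -0.21 ± 0.28 and -0.28 ± 0.29 (SE) and adjusted p of 0.894 and 0.835. Without overexpression library 2 both turned to values just above 0, at 0.03 and 0.06. The Slc7a5 locus overlaps the annotated gene Gm20388, listed at 40.9 to 76.0 TPM, and the values of the pair are uncertain because the use of strand in counting is not known.

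Slc7a11 (xCT, the light chain that imports cystine in exchange for glutamate, chromosome 3, 49892526 to 50443614, minus strand) had the lowest log2 fold change of the members. Control libraries had 3.86 TPM at the lowest, 10.6 at the median and 20.2 at the highest, and overexpression libraries 1 to 5 had 8.29, 1.31, 4.07, 6.78 and 8.80 TPM. All 5 overexpression libraries were below the control mean, but 4 of them lay within the control range. In limma its fold change on the log2 scale was -0.75 ± 0.44 (SE), the 95% interval reached from -1.70 to 0.19 and the adjusted p was 0.573. Without overexpression library 2 the fold change was -0.40, and Slc43a1, Slc1a4 and Slc7a3 were then lower, at -0.53, -0.51 and -0.44.

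Of the other light chains, Slc7a6 (a partner of Slc3a2 that exchanges cationic for neutral amino acids) had the fold change nearest 0, averaging 20.3 TPM in both groups, with an SD of 2.72 over 5 overexpression libraries and 2.93 over 6 controls. Its 95% interval ran from -0.30 to 0.30. Slc7a10 (Asc-1, the light chain for small neutral amino acids including D-serine) was near the filter, at 0.573 to 4.09 TPM in controls and 1.60, 3.16, 1.42, 1.09 and 0.870 TPM with overexpression. Its log2 fold change was -0.06, with an interval from -0.81 to 0.68.

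Among cationic amino acid carriers, Slc7a3 (CAT3) had 4.51, 15.0 and 23.3 TPM as the lowest, median and highest control. With overexpression it had 8.06, 3.12, 8.43, 7.07 and 16.0 TPM in libraries 1 to 5, 4 of them below the control mean. In limma the difference was -0.71 ± 0.37 (SE) on the log2 scale, the 95% interval ran from -1.49 to 0.08 and the adjusted p was 0.481. Slc7a1 averaged 44.6 TPM (SD 12.5) over the 5 overexpression libraries and 41.5 TPM (SD 12.4) over the 6 controls, with an interval from -0.36 to 0.57.

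The sodium-coupled carriers of the Slc38 family were close between groups. Slc38a1, which carries glutamine and alanine, had 30.0, 32.9 and 47.6 TPM as the lowest, median and highest control, and 40.4, 35.2, 49.1, 44.5 and 40.9 TPM with overexpression. So 4 of 5 overexpression libraries were above the control mean, and control library 6 lay above all but 1 of them. The difference by limma was 0.25 ± 0.13 (SE) on the log2 scale, its interval ran from -0.03 to 0.54 and its adjusted p was 0.493.

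Slc38a2 had 133, 104, 127, 124 and 112 TPM with overexpression against 90.5, 112 and 143 TPM as the lowest, median and highest control. Its log2 fold change was 0.11 with an interval from -0.17 to 0.39, so a change of more than 1.5-fold lay outside the interval. Slc38a3, Slc38a7, Slc38a9 and Slc38a10 had log2 fold changes of -0.08, 0.11, -0.08 and -0.06. Slc38a3 had 49.8 to 77.5 TPM in controls, 38.8 TPM in overexpression library 4 and 62.0 to 69.4 TPM in the other 4 overexpression libraries.

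The glutamate carrier Slc1a1 (EAAC1, which also takes up cysteine) varied widely within each group. It had 3.07, 8.38 and 14.6 TPM as the lowest, median and highest control and 2.79, 6.44, 16.6, 8.37 and 10.0 TPM with overexpression. The log2 fold change of 0.08 had an interval from -0.73 to 0.90.

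Of the Slc36 family, Slc36a1 (PAT1, a proton-coupled carrier of lysosomes) and Slc36a4 (PAT4) had 5.10 and 7.97 TPM in controls and 4.97 and 8.49 TPM with overexpression. Their log2 fold changes were -0.03 and 0.07. Slc36a4 had the smallest control SD of the 21 tested members, 0.467 TPM, and wider with overexpression, with an SD of 1.50 TPM.

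Slc43a1 (LAT3) and Slc43a2 (LAT4) carry large neutral amino acids without a heavy chain. Slc43a1 had the second smallest p of the members, 0.0502 before adjustment and 0.399 after it in limma. It had 5.80, 7.42 and 10.5 TPM as the lowest, median and highest control and 5.36, 4.50, 6.34, 8.28 and 1.80 TPM with overexpression, where library 5 was far the lowest. Its log2 fold change was -0.55 ± 0.26 (SE), in an interval from -1.10 to 0.00. Slc43a2 averaged 4.45 TPM (SD 1.14) over the 5 overexpression libraries and 5.74 TPM (SD 2.34) over the 6 controls, with a log2 fold change of -0.27, or -0.11 without control library 6.

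The 40 members summed to 778 ± 146 TPM (mean ± SD) over the 5 overexpression libraries and to 852 ± 192 TPM over the 6 controls. The sums spanned 529 to 901 and 659 to 1148 TPM, so the spread within each group was larger than the difference between them. Over all rows the listed TPM summed to 730832 to 821967 with overexpression and 814208 to 846780 in controls. Rescaled over nuclear protein-coding rows, the members summed to 1537 ± 248 with overexpression and 1639 ± 332 in controls (mean ± SD).

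Several tested members varied together between libraries. Slc3a2, taken as reference because it is the shared heavy chain, was compared over the 11 libraries with the other 20 tested members and with 21 ATF4 response genes, 41 relations in all on the log2(TPM + 1) scale. The pattern was noticed in the values before these relations were computed. The p-values of the 41 relations therefore describe a pattern seen in these same libraries and are no independent test of it. Of the 19 other transporters, 5 followed Slc3a2 and 1 ran opposite to it, with both Pearson and Spearman permutation p under 0.05 after adjustment over the 41 relations.

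The 5 that followed the heavy chain were its light chains Slc7a11 and Slc7a5, the cationic carriers Slc7a1 and Slc7a3, and Slc1a5. Slc7a11 had a Pearson r of 0.93 and a Spearman rho of 0.95, with permutation p of 4.00e-05 and 2.00e-05 (0.000273 and 0.00041 adjusted). Slc7a5 had an r of 0.93 and a rho of 0.89, with permutation p of 1.00e-05, the smallest that 100000 permutations can give, and 0.00055 (0.000137 and 0.00251 adjusted). The r of Slc7a1, Slc7a3 and Slc1a5 was 0.88, 0.87 and 0.82, with rho of 0.74, 0.83 and 0.77. Their permutation p were 0.00034, 0.00045 and 0.00217 for r and 0.0127, 0.00254 and 0.00743 for rho (0.00127, 0.00154 and 0.00523, and 0.0307, 0.00868 and 0.0190 adjusted).

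These relations were also computed among controls alone. Within the 6 controls the r of Slc7a5, Slc7a1, Slc7a3, Slc7a11 and Slc1a5 with Slc3a2 was 0.97, 0.96, 0.94, 0.94 and 0.91. The exact permutation p there were 0.00694, 0.0181, 0.00417, 0.0375 and 0.0431 (0.0407, 0.0617, 0.0285, 0.0961 and 0.104 adjusted over the 41). The 5 overexpression libraries are too few for a correlation of their own. Without the 2 libraries farthest from the Slc3a2 median, overexpression library 2 and control library 4, the r over 9 libraries was 0.91, 0.77, 0.69, 0.89 and 0.67 in the same order.

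The levels show this library by library. Control libraries 1, 2 and 6 had 218, 220 and 265 TPM of Slc3a2, and Slc7a11 at 14.8, 20.2 and 17.9 TPM. Control libraries 3, 4 and 5 had 132, 91.2 and 118 TPM of Slc3a2 and 4.07, 3.86 and 6.41 TPM of Slc7a11. The r within controls thus reflects a split of libraries 1, 2 and 6 from libraries 3, 4 and 5. Which library kit was used for each library is not stated, so its part in this split was not tested. Overexpression library 2, with the least Slc3a2, also had the least Slc7a5, Slc7a11, Slc7a3, Slc7a1 and Slc1a5 of all 11 libraries.

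Slc7a10 ran the other way. It had 0.573, 0.612 and 0.704 TPM in control libraries 1, 2 and 6 and 3.23, 2.59 and 4.09 TPM in control libraries 3, 4 and 5. Its r with Slc3a2 was -0.85 and its rho -0.85, with permutation p of 0.00115 and 0.00185 (0.00314 and 0.00690 adjusted), and r was -0.87 without the 2 farthest libraries. Among controls alone r was -0.88, with an exact permutation p of 0.0917 (0.157 adjusted), over the threshold. Among the 11423 other tested protein-coding genes the r of Slc7a10 over all 11 libraries was the most negative, a description across genes, which are not independent. Slc7a10 is low and overlaps Lrp3, listed at 21.0 to 36.4 TPM. The r of Lrp3 was 0.35 with Slc3a2 and -0.10 with Slc7a10. The part of Lrp3 reads in the Slc7a10 values was not tested.

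**Figure D4:**
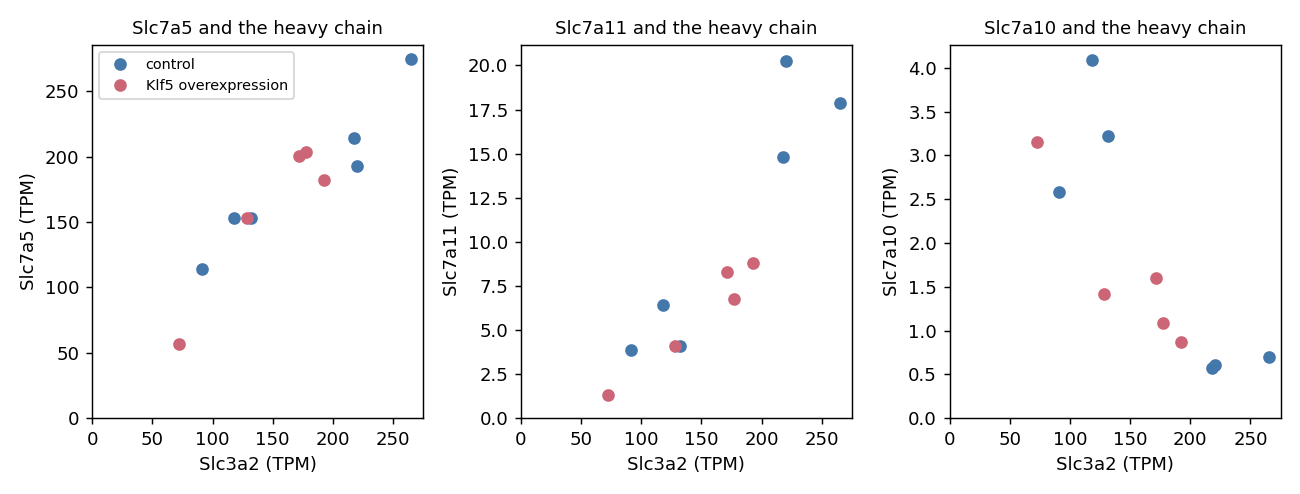
TPM of Slc7a5, Slc7a11 and Slc7a10 against TPM of Slc3a2, with 1 point per library (blue, 6 controls; red, 5 Klf5 overexpression libraries). Slc7a5 and Slc7a11 climb with Slc3a2 (r of 0.93 each on the log2 scale) and Slc7a10 falls (r of -0.85). At 171 to 193 TPM of Slc3a2, 3 overexpression libraries hold 6.78 to 8.80 TPM of Slc7a11.

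The remaining transporters showed no such relation at the adjusted threshold. Slc1a4 had an r of 0.64 and a rho of 0.54, with permutation p of 0.0334 and 0.0933 (0.0652 and 0.161 adjusted). Its r lay above the 95th percentile of the 11423 other tested protein-coding genes, 0.57. Among controls alone the r of Slc1a4 was 0.74, with an exact permutation p of 0.1125 (0.1845 adjusted). With each group centred on its own mean it was 0.74. Slc38a2, itself a known ATF4 target, had an r of 0.40 with a permutation p of 0.215 (0.327 adjusted), and the other 11 had r between -0.19 and 0.28.

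ATF4 response genes moved with the heavy chain across libraries. Of the 21 genes in the list, 14 had an adjusted permutation p under 0.05 for r, all of them positive, and 11 had it for rho as well. The median r of the list was 0.80, against 0.10 over the 11423 protein-coding genes, and 18 of the 21 lay above the 95th percentile of those genes, 0.57. Mthfd2 (a mitochondrial folate enzyme) and Atf4 itself had the highest r of all genes, at 0.97 and 0.96, and Chac1 (a glutathione-degrading enzyme), Trib3 (a pseudokinase) and Asns (asparagine synthetase) had 0.94, 0.92 and 0.91.

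Among the 20 genes closest to Slc3a2 were 2 transporters, Slc7a11 and Slc7a5, and 8 genes of the ATF4 list. Others of these 20 were the aminoacyl-tRNA synthetase genes Aars, Gars and Nars. Atf4 had 208, 223 and 230 TPM in control libraries 1, 2 and 6, and 165, 141 and 133 TPM in control libraries 3, 4 and 5. It had 198, 109, 145, 202 and 183 TPM in overexpression libraries 1 to 5, so library 2 was again the lowest of all. Depth is unknown, and TPM of 1 library share a total. The part of either in these relations was not tested. After rescaling over nuclear protein-coding rows the r of Slc3a2 was 0.97 with Atf4, 0.91 with Slc7a5 and 0.92 with Slc7a11. The r of Slc3a2 with the coding total itself was 0.27.

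**Figure D5:**
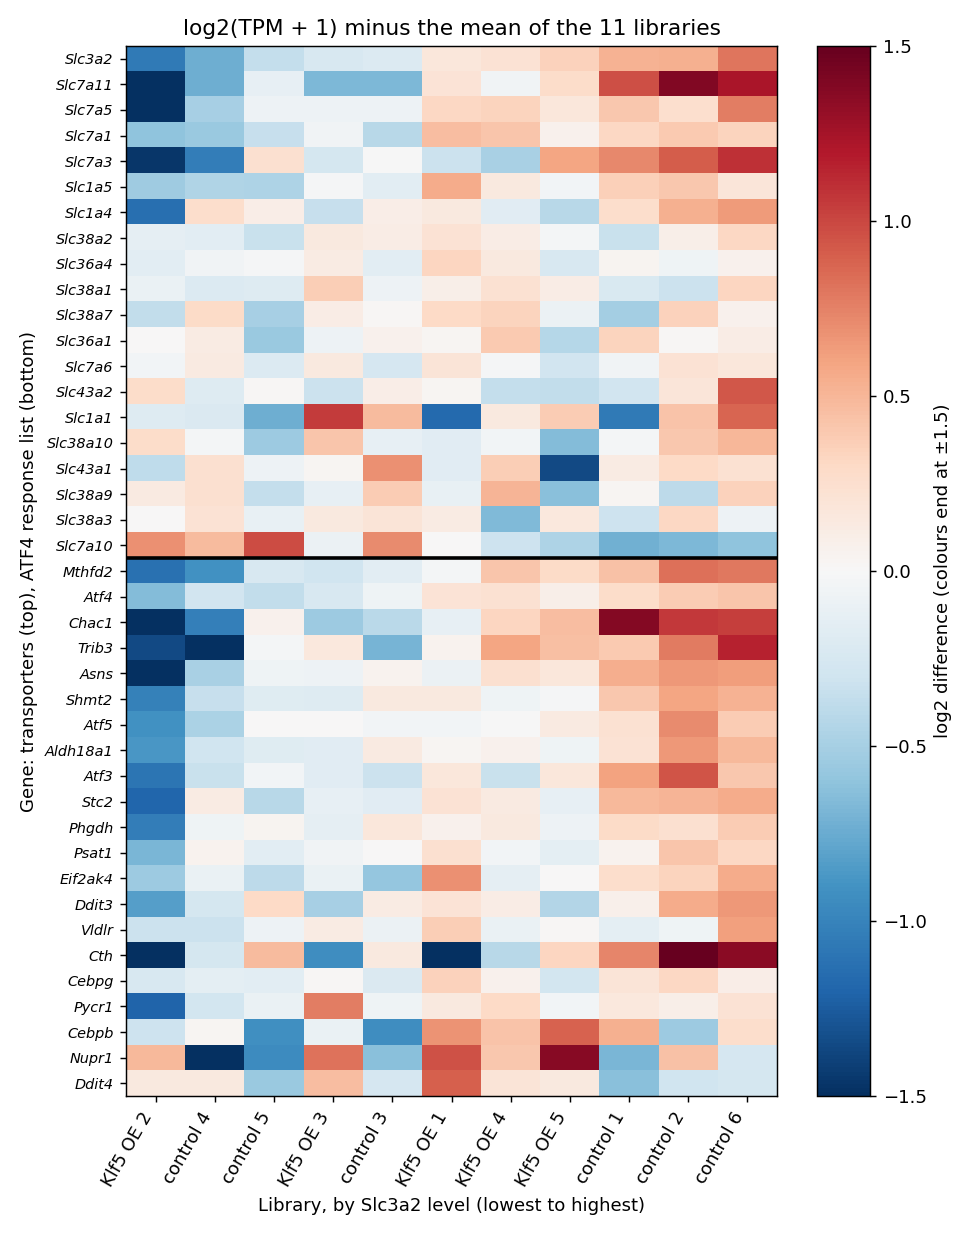
Difference of log2(TPM + 1) from the mean of the 11 libraries (colour, ending at ±1.5), for Slc3a2 and the 19 other tested transporters above the line and 21 ATF4 response genes below it, each sorted by r with Slc3a2. Libraries run by Slc3a2 level from overexpression library 2 (72.4 TPM) to control library 6 (265 TPM), and the upper rows of both blocks pass from blue to red along that order while Slc7a10 passes from red to blue.

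The window before the RefSeq start of Slc7a11 is printed because the gene was among those that moved together and because its letters match the core of the composite motif known for ATF4 with C/EBP partners. Capitals mark matches to TGATGNAA on either strand (GRCm38.p6, chr3:50443614-50443863, minus strand, read 5′ to 3′). The window of Slc3a2 is set beside it (chr19:8713898-8714147, minus strand), which has no match. It lies inside the annotated gene span (8706882 to 8723369), before an internal start, whereas the Slc7a11 window begins at its gene's end. The 2 windows are therefore not like for like.
Slc7a11: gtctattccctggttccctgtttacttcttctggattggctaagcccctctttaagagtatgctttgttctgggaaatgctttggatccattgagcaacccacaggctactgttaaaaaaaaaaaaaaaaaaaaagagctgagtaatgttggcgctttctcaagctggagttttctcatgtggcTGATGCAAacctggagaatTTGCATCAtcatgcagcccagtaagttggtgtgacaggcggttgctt
Slc3a2: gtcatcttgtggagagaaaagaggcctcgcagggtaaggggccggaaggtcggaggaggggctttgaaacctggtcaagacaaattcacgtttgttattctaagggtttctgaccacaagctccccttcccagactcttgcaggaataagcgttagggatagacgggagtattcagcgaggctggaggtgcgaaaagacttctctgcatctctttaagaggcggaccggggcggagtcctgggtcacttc
The Slc7a11 matches lie on opposite strands, 66 and 47 bases before the start. At least 1 match was found in 3.45% of the 32851 windows and at least 2 in 13 windows, or 0.0396%. Of the 16 tested members with a window, Slc7a11 was the only gene with a match within these 250 bases. Windows for Slc7a5, Slc7a3 and Slc1a5 were not used here.

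Genes around amino acid handling were read from 3 lists. Of 18 tested genes among 31 other amino acid transporters, 1 rose and 1 fell in limma, beside 3.72% of all tested genes called, the 2 being sideroflexins of the mitochondrial membrane. Sfxn1, the mitochondrial serine carrier, fell from a control mean of 53.0 TPM (SD 3.42, 6 libraries) to 37.2 TPM (SD 4.47, 5 libraries). Its log2 fold change was -0.51 ± 0.11 (SE) and limma's adjusted p was 0.0149, or 0.0542 with a replicate block. Sfxn3, of the same family, rose from a control mean of 20.6 TPM (SD 2.22) to 34.1 TPM (SD 6.01), by 0.69 ± 0.14 (SE) on the log2 scale, and limma's adjusted p was 0.00988. The groups did not overlap for either, beside 3.29% of all tested genes without overlap. The list had a median log2 fold change of -0.09.

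Of 38 tested genes of amino acid sensing and mTORC1, the kinase complex that responds to leucine and arginine at the lysosome, 1 rose and none fell, beside the same 3.72% called. This was Lamtor5, a subunit of the Ragulator scaffold, at 164, 100, 141, 155 and 93.9 TPM in overexpression libraries 1 to 5 against 52.5, 72.9 and 87.2 TPM as the lowest, median and highest control. The groups did not overlap, beside the same 3.29% of all tested genes. The log2 fold change was 0.87 ± 0.17 (SE) and limma's adjusted p was 0.00724, or 0.0507 with no filter on low values. The median of the list was -0.09.

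Of the 21 ATF4 response genes, all tested, 2 rose and 1 fell, beside 2.29% higher and 1.43% lower among all tested genes. The median was -0.28, with 17 below 0, beside 57.6% of all genes. Nupr1, a small stress-induced chromatin protein, rose from a control mean of 8.73 TPM (SD 5.09) to 23.7 TPM (SD 6.98), by 1.47 ± 0.32 (SE) on the log2 scale, and limma's adjusted p was 0.0136, or 0.0971 with no filter. Ddit4 (REDD1, an inhibitor of mTORC1) rose from 180.3 TPM (SD 36.0) to 291 TPM (SD 71.2), by 0.68 ± 0.16 (SE), and its adjusted p was 0.0240 in limma. These 2 had r with Slc3a2 of 0.28 and -0.22 over the 11 libraries, among the 3 lowest of the list. Among controls alone the r of Nupr1 was 0.81 and that of Ddit4 -0.46. With each group centred on its own mean, r was 0.70 for Nupr1 and -0.12 for Ddit4.

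The Ddit4 call was lost (limma adjusted p of 0.0504 to 0.0591) without overexpression library 1 or 3 or control library 1 or 5, and with no filter (0.105) or a replicate block (0.0760). Cth, which makes cysteine from cystathionine, fell from 9.00 TPM (SD 5.32) in controls to 2.50 TPM (SD 2.10), a log2 fold change of -1.54 ± 0.39 (SE), and limma's adjusted p was 0.0359. It passed in only 4 of 11 fits that left out a library, those without control library 3 or 4 or overexpression library 4 or 5. It was also lost in 5 of 9 other settings, with limma adjusted p of 0.0617 (quantile normalization), 0.0626 (rescaled), 0.0663 (trimmed-mean scaling), 0.122 (replicate block) and 0.185 (no filter).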

How the data were processed

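RNA was sequenced from neurospheres of E15.5 embryos, with 1 library for each of 6 controls and 5 embryos that overexpressed Klf5. The deposited table gives TPM per gene and library, computed by the authors. The submitters' processing notes name HISAT2, StringTie, HTSeq, DESeq2 and build GRCm38.p5, with no roles or versions. Which tool made the TPM, the annotation release and the strand setting are not stated there or in the labels. Library depth is therefore unknown, and no counting error can be given. 2 library kits are named in the labels' protocols, 1 of them directional, with no library tied to either, so the kit could not be taken into account.

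Columns were assigned to groups by the library number in the labels. Genes at 1 TPM or more in at least 5 libraries (13549 of 53453 rows) were tested on log2(TPM + 1), with the fold change on that scale, by limma 3.58.1 with an intensity trend (R 4.3.3) and no covariate, and p-values were Benjamini-Hochberg adjusted over all tested genes, with a threshold of 0.05. The scale understates changes of genes near 1 TPM. Correlations were tested by 100000 permutations, and exactly within the 6 controls, two-sided (scipy 1.17.1). The limma step was tested on simulated data. Alternatives were another pseudocount, no filter and a stricter one, quantile normalization, trimmed-mean scaling, rescaling over nuclear protein-coding rows, array weights, a replicate block, leaving out each library and, chosen after seeing the data, log2 Atf4 as covariate.

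Members and lists were chosen with earlier results of these data known. Named genes were every tested member, those with the smallest p by library, untested members by highest TPM, and members of the other lists past the threshold. Overlapping genes and promoter windows came from GENCODE M21 (GRCm38) and RefSeq (GRCm38.p6), the latter with windows for 16 of 21 tested members.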

Additional observations from a re-analysis of the deposited data

Results flagged for a closer look

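In 3 of 42 groups of values of the tested members, 1 library stood apart from the others by Dixon's test at its 95% critical value. Chance gives about 1 such group in 20 (5%). Slc38a3 was lowest in overexpression replicate 4, at 38.8 TPM, with the next library at 62.0 TPM, a gap of 0.759 of the range. Slc38a1 was highest in control replicate 6, at 47.6 TPM, with the next at 35.9 TPM, a gap of 0.664 of the range. Slc43a2 was highest in the same control replicate 6, at 10.3 TPM, with the next at 5.73 TPM, a gap of 0.709 of the range. Control replicate 6 also had the most Slc7a5 and Slc3a2 of the 11 libraries.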

How the results depend on the processing

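No member was called higher under any of the 20 alternatives. The count called lower was 0 as reported and 1, Slc1a4, with array weights, a filter of 5 TPM, Atf4 as covariate (chosen after seeing the data), quantile normalization, rescaling and trimmed-mean scaling. Leaving out each library gave 0 to 1. The Slc1a4 adjusted p (limma) was 0.0593 with a pseudocount of 0.1 and 0.182 with no filter, and its log2 fold change ran from -0.83 to -0.51 with each library left out. Over all genes 504 were called, 349 to 733 under the other settings and 386 to 496 with each library left out. In the other lists 6 genes were called. With no filter the count was 3, of which 2 (Sfxn1 and Sfxn3) were among the 6 and Castor1, which the usual filter leaves out and which is named after its value was seen, was not, and with the replicate block it was 3, all among the 6. Under quantile normalization, rescaling and trimmed-mean scaling 5 of the 6 remained, without Cth, and with each library left out 4 to 6 were called. With the block Sfxn1 had a limma adjusted p of 0.0542. The causes of these changes were not tested.

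Replicate numbers did not pair the libraries, since same-numbered deviations correlated at -0.04 to 0.30 and 1 of 5 pairs matched best with its own number. The replicate block (10 libraries, control 6 left out) called 420 genes and no member, with Slc1a4 at a limma adjusted p of 0.144, Ddit4 at 0.0760 and Cth at 0.122.

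Some changes near 0, none called, took the opposite sign. Slc7a6 was 0.0555 (array weights), 0.0186 (Atf4 covariate), 0.0324 (quantile), 0.0303 (replicate block), 0.0372 (rescaled) and 0.0418 (trimmed mean). Slc36a1 was 0.0475, 0.0135, 0.00502 and 0.00830 with array weights, Atf4 covariate, rescaling and trimmed-mean scaling. Slc7a6os was 0.0271, 0.00361 and 0.00908 with array weights, rescaling and trimmed-mean scaling. Slc38a10 was 0.0426 with array weights and 0.0291 with the replicate block, Slc3a2 was 0.00595 with Atf4 as covariate, and Slc7a10 was 0.0132 with a pseudocount of 0.1.

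With each library left out, the range crossed 0 for Slc7a5 (-0.406 to 0.0565), Slc3a2 (-0.370 to 0.0308), Slc38a3 (-0.155 to 0.0700), Slc38a10 (-0.178 to 0.0906), Slc7a6os (-0.131 to 0.0424) and Slc7a6 (-0.0549 to 0.0682). It also did for Slc1a5 (-0.0895 to 0.182), Slc1a1 (-0.170 to 0.384), Slc36a4 (-0.00252 to 0.136), Slc36a1 (-0.146 to 0.0725), Slc7a10 (-0.243 to 0.128) and Slc38a9 (-0.223 to 0.0618). Slc7a10 and Slc38a9 gave no value under the filter of 5 TPM, which they did not pass.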
